A study of Mus musculus with 4 samples.

Results

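The immediate early and AP-1 genes described here were 10 genes taken by symbol from the 27998 genes of the deposited count matrices: Fos, Fosb, Jun, Junb, Jund, Egr1, Ier2, Atf3, Dusp1 and Zfp36. All 10 were found and all 10 had UMIs in every library. They were measured in CD45+ cells sorted from tumours transplanted into wild-type mice of the inbred strain 129S6, with 1 single-cell library for each of 4 treatments. The combination library came from mice given anti-PD-1 (clone RMP1-14) together with anti-CTLA-4 (clone 9D9), and the other treated libraries from mice given anti-PD-1 alone or anti-CTLA-4 alone. The control library came from mice given a rat IgG2a isotype antibody. Each antibody was given at 200 µg into the peritoneum on days 3, 6 and 9 after transplant. All 4 groups shared the tumour transplant, a digestion with collagenase at 1 mg/ml for 1 h at 37 °C, and a sort of live CD45+ cells to a purity over 96%. The number of mice behind a library is not stated.

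Immediate early genes are switched on within minutes of a stimulus, from factors already present in the cell and without new protein synthesis. The proteins of the Fos family pair with those of the Jun family to form AP-1, a transcription factor that binds the sequence TGANTCA, and Atf3 belongs to the related family that binds cyclic AMP response elements. Egr1 is a zinc finger transcription factor, Ier2 a small nuclear protein, Dusp1 a phosphatase that switches MAP kinases off, and Zfp36 (tristetraprolin) a protein that binds AU-rich elements of mRNAs and speeds their decay. In immune cells these genes are known to respond to cytokines, to microbial products, to antigen receptor signals and also to the warm enzymatic digestion of tissue.

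Promoters are shown for 4 members: Fos, Dusp1 and Atf3, whose levels spanned the widest ranges across cell clusters among those with an entry, and Jund, whose level varied least. RefSeq's promoter table (build GRCm38.p6) held 8 of the 10 members, all but Ier2 and Egr1. The 250 bases before each start were searched on both strands for the full cyclic AMP response element TGACGTCA, its core TGACG, the AP-1 site TGANTCA and the CArG box bound by serum response factor. A full element holds the core on both strands, so the first 2 motifs overlap. The sequences run 5′ to 3′ in the direction of transcription, with every match in capitals.
Fos, chr12:85473640-85473889, plus strand: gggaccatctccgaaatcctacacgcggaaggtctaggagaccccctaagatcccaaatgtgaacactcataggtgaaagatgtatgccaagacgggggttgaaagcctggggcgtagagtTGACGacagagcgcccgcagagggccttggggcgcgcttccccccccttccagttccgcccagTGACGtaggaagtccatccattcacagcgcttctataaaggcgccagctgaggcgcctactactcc
Dusp1, chr17:26508473-26508722, minus strand: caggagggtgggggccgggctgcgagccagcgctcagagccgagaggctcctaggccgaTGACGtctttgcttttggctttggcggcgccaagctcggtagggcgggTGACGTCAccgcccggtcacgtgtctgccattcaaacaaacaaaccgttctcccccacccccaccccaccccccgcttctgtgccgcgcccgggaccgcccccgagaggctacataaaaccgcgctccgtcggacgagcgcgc
Atf3, chr1:191183334-191183583, minus strand: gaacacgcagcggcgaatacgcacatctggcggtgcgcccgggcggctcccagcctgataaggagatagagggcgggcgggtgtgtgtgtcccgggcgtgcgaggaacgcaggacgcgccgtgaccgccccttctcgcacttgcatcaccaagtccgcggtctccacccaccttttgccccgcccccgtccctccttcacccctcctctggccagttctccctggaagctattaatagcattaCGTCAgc
Jund, chr8:70697489-70697738, plus strand: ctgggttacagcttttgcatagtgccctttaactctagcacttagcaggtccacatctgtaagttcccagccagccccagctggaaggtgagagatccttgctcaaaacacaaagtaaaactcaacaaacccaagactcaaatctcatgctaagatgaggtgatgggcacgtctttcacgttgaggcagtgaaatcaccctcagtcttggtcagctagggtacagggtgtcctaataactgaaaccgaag
The core TGACG was found before 5 of the 8 starts (Fos, Fosb, Junb, Atf3 and Dusp1), against 17.8% of all 32851 promoters in the table. The full element was found before Dusp1, 143 bases ahead of its start, against 1.55% of all promoters. A CArG box was found before Zfp36 (1.47% of all promoters), and TGANTCA before none of the 8 (6.75%). No motif searched was found before Jun or Jund. These are matches of letters in a short window and say nothing about which factor was bound.

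The authors' table of cells listed 3945 cells with 11827242 UMIs in the combination library, 3417 with 11176246 in the anti-PD-1 library, 3336 with 11211310 in the anti-CTLA-4 library and 3793 with 13374294 in the control library. A UMI (unique molecular identifier) stands for 1 captured transcript, counted at its 3′ end. Ptprc, which encodes CD45, was seen in 47.5% to 59.1% of the listed cells of each library and in 12.7% of the 55 cells of cluster 18, a tumour or fibroblast-like cluster. The median listed cell held 2549 UMIs in the combination library and 2824 to 2991 in the other 3, and cells under 1000 UMIs numbered 322 in the combination library, 195 in the anti-PD-1 library and 123 in the anti-CTLA-4 library, against 11 in control. Of all listed cells, 219 had a barcode found in another library as well. No group had a second library, so there was no replicate and no test: library, treatment and handling cannot be told apart, and every interval below is a 95% interval of counting error only. Levels are CPM, the UMIs of a gene per 1000000 UMIs of the cells named.

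The 10 genes together were more abundant in the combination library than in any other. Their summed level was 7323 CPM in the combination library, 5602 with anti-PD-1 and 6049 with anti-CTLA-4, against 5259 in control. The log2 ratio to control was 0.48 for the combination (interval 0.46 to 0.49), 0.20 for anti-CTLA-4 (0.19 to 0.22) and 0.09 for anti-PD-1 (0.08 to 0.11). All 10 members were above control in the combination library with an interval above 0, where 13.8% of the 11596 genes compared were and 31.1% lay below it. That share counts genes down to 20 UMIs in the 2 libraries, with a median of 358, while the members held 1295 to 39629 and so had narrow intervals. The members were also chosen with earlier results of these data known, so the contrast with all genes is only a description. The median log2 ratio was 0.50 over the members and -0.12 over all genes. On the CPM scale every combination ratio was shifted by -0.11 relative to a scaling by median-of-ratios factors.

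**Figure D1:**
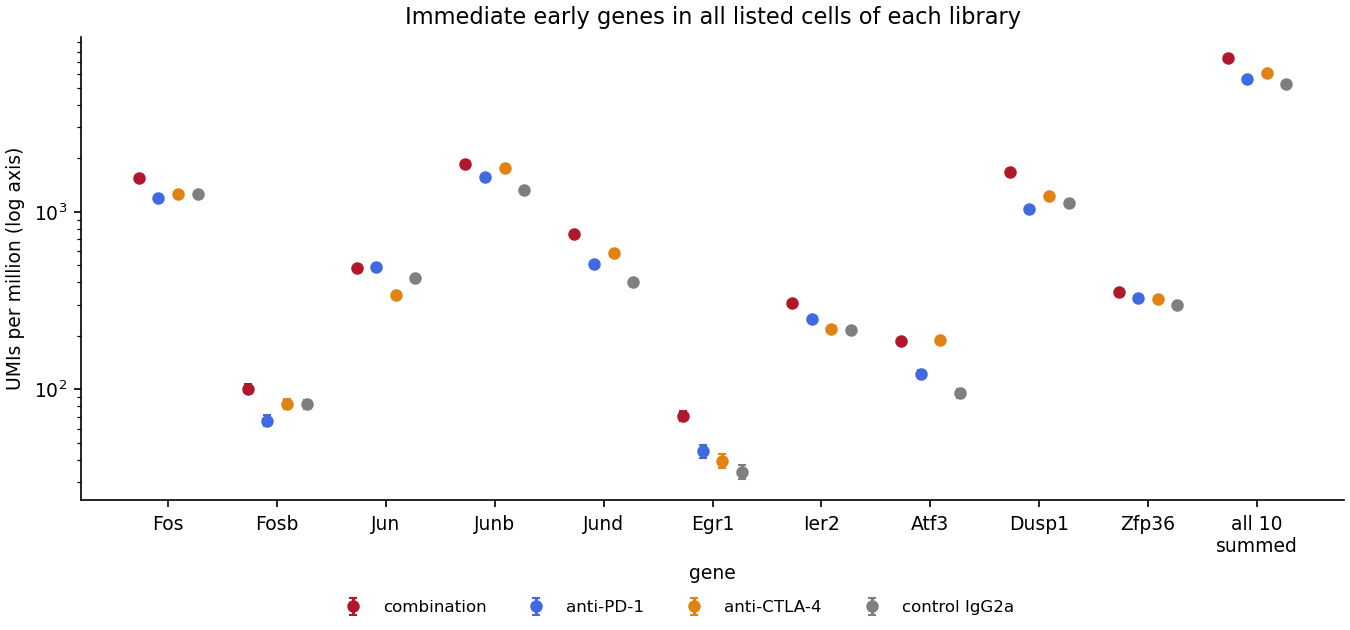
CPM of each gene and of the 10 together (log axis) in all listed cells of the combination, anti-PD-1, anti-CTLA-4 and control IgG2a libraries. Points are single libraries and bars the exact Poisson 95% interval, often smaller than the point. For 8 genes and the sum the combination library is highest; Jun is level with anti-PD-1 and Atf3 with anti-CTLA-4.

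Among the Fos genes, Fos measured 1541 CPM in the combination library, 1198 with anti-PD-1 and 1262 with anti-CTLA-4, against 1264 in control. A Fos UMI was seen in 64.7% of combination cells, 60.7% of anti-PD-1 cells and 62.4% of anti-CTLA-4 cells, against 60.1% of control cells. Fosb, a close relative of Fos, measured 101 CPM in the combination library, 66.7 with anti-PD-1 and 82.7 with anti-CTLA-4, against 82.4 in control. Both genes stood higher in the combination library than in the other 3, with a log2 ratio to control of 0.29 each (0.26 to 0.32 for Fos, 0.17 to 0.41 for Fosb). With anti-PD-1 both were below control, with log2 ratios of -0.08 for Fos (-0.11 to -0.04) and -0.31 for Fosb (-0.44 to -0.17), and with anti-CTLA-4 both intervals included 0. The Fos value with anti-PD-1 did not keep its sign: it was 0.07 when every cell was thinned to 1000 UMIs.

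The Jun genes differed from one another. Jund, the Jun protein gene that resting cells already express, measured 751 CPM in the combination library, 507 with anti-PD-1 and 583 with anti-CTLA-4, against 400.25 in control. All 3 treated libraries were above control, with log2 ratios of 0.91 for the combination (0.86 to 0.96), 0.34 for anti-PD-1 (0.29 to 0.39) and 0.54 for anti-CTLA-4 (0.49 to 0.59). Junb, an AP-1 subunit induced by cytokines, measured 1859.5 CPM in the combination library, 1566.5 with anti-PD-1 and 1772 with anti-CTLA-4, against 1319 in control, and so was also higher in all 3, with log2 ratios of 0.50 for the combination, 0.25 for anti-PD-1 and 0.43 for anti-CTLA-4. Jun did not follow: it measured 484 CPM in the combination library, 488 with anti-PD-1 and 341 with anti-CTLA-4, against 424 in control. Its log2 ratio was 0.19 (0.14 to 0.24) in the combination library and -0.31 (-0.37 to -0.25) with anti-CTLA-4.

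Of the other transcription regulators, Egr1 measured 70.7 CPM in the combination library, 44.7 with anti-PD-1 and 39.5 with anti-CTLA-4, against 34.3 in control. Its log2 ratio of 1.04 in the combination library (0.88 to 1.21) was the only one of the 10 past 2-fold, where 3% of genes were. Atf3 measured 188 CPM in the combination library, 122 with anti-PD-1 and 189.99 with anti-CTLA-4, against 94.96 in control, so the combination and anti-CTLA-4 libraries stood together above the others. The log2 ratio of Atf3 was 0.98 (0.88 to 1.08) in the combination library and 1.00 (0.90 to 1.10) with anti-CTLA-4, the only member past 2-fold there (2.51% of genes), and no member was past 2-fold with anti-PD-1 (2.18%). When each cluster was given the same weight, the combination ratio of Egr1 was 0.39 and that of Atf3 0.28. The 10 cells with the most Egr1 UMIs held 17.3% of that gene's UMIs in the combination library and 20.04% of those in the control library. Ier2 measured 308 CPM in the combination library, 249 with anti-PD-1 and 219.5 with anti-CTLA-4, against 217 in control.

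The genes that limit the response were also higher in the combination library. Dusp1 measured 1666 CPM there, 1032 with anti-PD-1 and 1234 with anti-CTLA-4, against 1124 in control. Its log2 ratio was 0.57 in the combination library (0.54 to 0.60), -0.12 with anti-PD-1 (-0.16 to -0.09) and 0.13 with anti-CTLA-4 (0.10 to 0.17). Zfp36 varied little, at 355 CPM in the combination library, 329 with anti-PD-1 and 324 with anti-CTLA-4, against 299 in control. Counted over the 10 members, anti-PD-1 had 7 with an interval above 0 (15.3% of the 11576 genes compared) and 3 below it (24.5%). The anti-CTLA-4 library had 6 above 0 (14.6% of 11618 genes) and 1 below it, Jun (24.3%). These 3 comparisons share the control library.

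Cells held several of these transcripts at once. After every cell was thinned to 1000 UMIs, a cell of the combination library showed a mean of 3.30 of the 10 genes, an anti-PD-1 cell 2.72 and an anti-CTLA-4 cell 2.91, against 2.48 for a control cell. Cells with 5 or more of them made up 27.6% of the combination library, 17.5% with anti-PD-1 and 21.6% with anti-CTLA-4, against 14.8% in control. Cells with none made up 6.16% of the combination library, 10.1% with anti-PD-1 and 10.6% with anti-CTLA-4, against 13.6% in control. In the combination library 77.4% of cells with a Fos UMI also had a Junb UMI, and 53.9% of those without Fos did, against 70.2% and 40.05% in control. With all libraries pooled, Junb was seen more often in cells with Fos than in cells without it in 18 of 19 clusters, for example in 82.2% against 65.0% of cells in cluster 0. The exception was cluster 14, with 28.6% of its 14 cells with Fos against 29.1% of those without. Within single libraries, over clusters with at least 20 cells of each kind, the direction was the same in 10 of 11 clusters of the combination, all 9 of the anti-PD-1 library, all 9 of the anti-CTLA-4 library and all 13 of control. The exception there was the neutrophil-like cluster of the combination library. Thinning left out 651 shallower cells, 322 of them from the combination library.

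The authors' 19 clusters carry numbers and no names, and were named here by marker genes as X-like where a fixed rule allowed it. The name macrophage/monocyte-like went to clusters 1, 2 and 4, the name T cell-like to 3, 6, 8, 10 and 13, the name NK cell-like to 5 and the name neutrophil-like to 12. Of the dendritic cell-like clusters, 11 was conventional, 17 migratory and 16 plasmacytoid. Cluster 3 was led by Cd4, cluster 8 by Cd8b1 and cluster 10 by Foxp3, while cluster 13 also held macrophage markers and a median of 5092.5 UMIs per cell. Clusters 0, 7, 9, 14 and 15 stayed unnamed. Cluster 0 was led by Gm9733, Gpr141 and Gm4841, and cluster 7 by the interferon-induced gene Rsad2 with Inhba and Ifit2. Clusters 9 and 15 were led by genes of the cell cycle, and cluster 14 by Gzmg, Ctsg and Gzmf. In the combination library the macrophage/monocyte marker Lyz2 stood at 16312 CPM in cluster 0, against 17946 in the macrophage/monocyte-like clusters together. Because the clusters were made from expression of all genes, the members included, levels between clusters are a description.

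The neutrophil-like cluster had the highest summed level, 14548 ± 2682 CPM (mean ± SD over 4 libraries), followed by cluster 0 with 10146 ± 1817 and cluster 4 with 9654 ± 863. Macrophage/monocyte-like clusters 1 and 2 averaged 6306 and 5856 CPM, and the conventional dendritic cell-like cluster 4246 CPM. T cell-like and NK cell-like clusters other than cluster 13 (7074 CPM) were lower, with 3303 CPM in cluster 3, 3065 in cluster 6, 2945 in cluster 10, 2700.5 in the NK cell-like cluster and 2072 in cluster 8. The lowest were the cycling cluster 9 with 1868 CPM and cluster 14 with 1547 ± 250, a 9.41-fold span from top to bottom. The macrophage/monocyte-like and neutrophil-like clusters stood above all of these lymphoid clusters but cluster 13. Their lowest value in a library was 4580 CPM (cluster 2, anti-PD-1), and the highest of those lymphoid clusters was 4352 CPM (cluster 6, combination). Cluster 13 met the naming rule for T cells but also held macrophage RNA, so its level cannot be read as that of T cells. In the combination library Lyz2, a macrophage/monocyte marker, stood at 12652 CPM in cluster 13, against 646 in cluster 3. Between direct neighbours in the order of all clusters, the ranges over libraries overlapped in all 16 pairs.

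**Figure D2:**
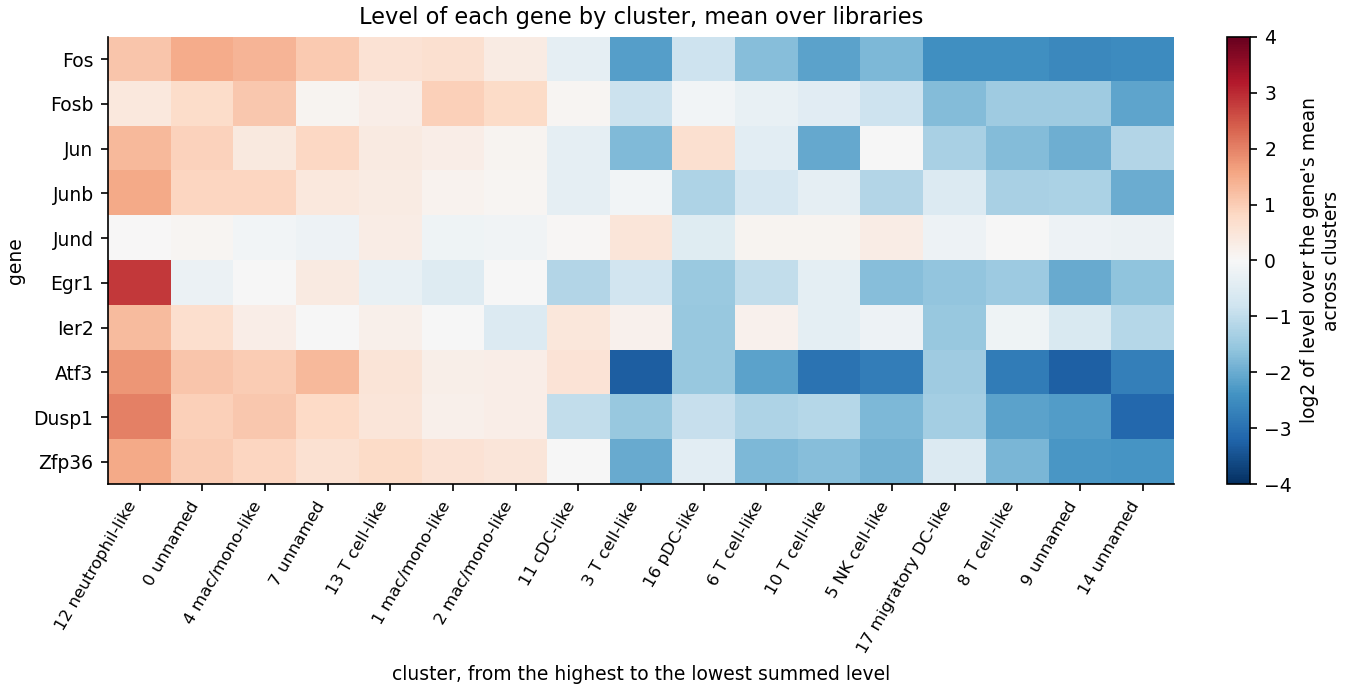
Level of each gene in 17 clusters as the log2 of its mean CPM over 4 libraries, relative to that gene's mean over the clusters (red above, blue below). Columns run from the highest summed level, neutrophil-like cluster 12, to the lowest, cluster 14; the Jund row stays near 0 throughout.

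The spans of single genes ranged from very wide to almost flat. Dusp1 measured 4427 ± 1383 CPM in the neutrophil-like cluster and 124 ± 77.2 in cluster 14, a 35.6-fold span. Atf3 spanned 33.3-fold (431 CPM in the neutrophil-like cluster, 12.9 in cluster 3) and Egr1 28.9-fold (429 CPM in the neutrophil-like cluster, 14.8 in cluster 9). Fos was highest in cluster 0, at 2659 ± 481 CPM, and lowest in cluster 9, at 158 ± 45.7. Jund, in contrast, spanned 1.93-fold, was highest in the Cd4-led cluster 3 (811 ± 184 CPM) and measured 590 ± 172 CPM in the neutrophil-like cluster. In cells thinned to 1000 UMIs, Egr1 was seen in 37.6% of neutrophil-like cells and in 1.52% to 6.71% of the cells of each other cluster; unthinned, the shares were 46.8% and 3.12% to 16.0%.

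Across the 70 pools of at least 20 cells of 1 cluster and library, Dusp1 followed the sum of the other members most closely (Pearson's r of log2 values 0.95). Zfp36 (0.90), Fos (0.89), Atf3 (0.88) and Junb (0.88) came next, then Fosb (0.76), Egr1 (0.75), Jun (0.72) and Ier2 (0.66), while Jund hardly did (0.15). The pools of a library share its depth and those of a cluster its cells, so these values only describe a likeness. Of 2538 other genes with a mean of at least 50 CPM, those most like the summed members were Cebpb (0.93), Msrb1 (0.91), Socs3 (0.90), Ier3 (0.90), Cyp4f18 (0.88), Fth1 (0.87), Cd14 (0.87), Tnfaip2 (0.87), Rab20 (0.87) and Cxcl2 (0.86). Cebpb encodes a transcription factor of myeloid cells, Socs3 a feedback inhibitor of cytokine receptors and Cxcl2 a neutrophil chemokine.

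No cluster lacks these genes, so the level that free RNA could give was read from macrophage genes in T cell-like clusters 3, 6, 8 and 10. Lyz2, encoding lysozyme, stood there at 5.4% of its macrophage/monocyte-like level in the combination library, 8.4% with anti-PD-1 and 2.8% with anti-CTLA-4, against 6.0% in control. Every member stood higher by this measure in each library: Fos at 11.3% to 18.3%, Zfp36 at 16.2% to 19.7%, Dusp1 at 20.02% to 31.05%, Junb at 44.9% to 66.5% and Jund at 118% to 159.7%. Atf3 came closest, at 8.4% in the combination library, 11.4% with anti-PD-1 and 11.0% with anti-CTLA-4, against 18.4% in control. The measure takes the macrophage/monocyte-like clusters as the only source of free RNA. In the combination library Atf3 stood at 240 CPM in that class. It stood higher in clusters 0 (376 CPM) and 7 (344 CPM) and in the neutrophil-like cluster (485 CPM). The part of free RNA in the Atf3 level of T cell-like clusters was not tested.

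The combination library was above control in most clusters but not in every one. The summed level was compared in the 17 clusters with at least 20 cells in both libraries. It was higher in the combination library, with an interval above 0, in 14 of them, lower in cluster 7, and within counting error in clusters 14 and 16. The largest log2 ratios were in the T cell-like clusters 6 (4352 CPM in the combination library, 1901 in control, ratio 1.19, 1.07 to 1.32) and 3 (4197 CPM in the combination library, 2224 in control, ratio 0.92, 0.83 to 1.00). The migratory dendritic cell-like cluster followed at 0.88 (0.67 to 1.10), with 38 cells in the combination library and 31 in control. The macrophage/monocyte-like clusters 1, 2 and 4 had ratios of 0.42, 0.46 and 0.16, and the neutrophil-like cluster 0.37 (0.29 to 0.45). For scale, among 1061 genes with at least 20 UMIs in every cluster, 6.97% were above control in at least as many as 14 of the 17.

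**Figure D3:**
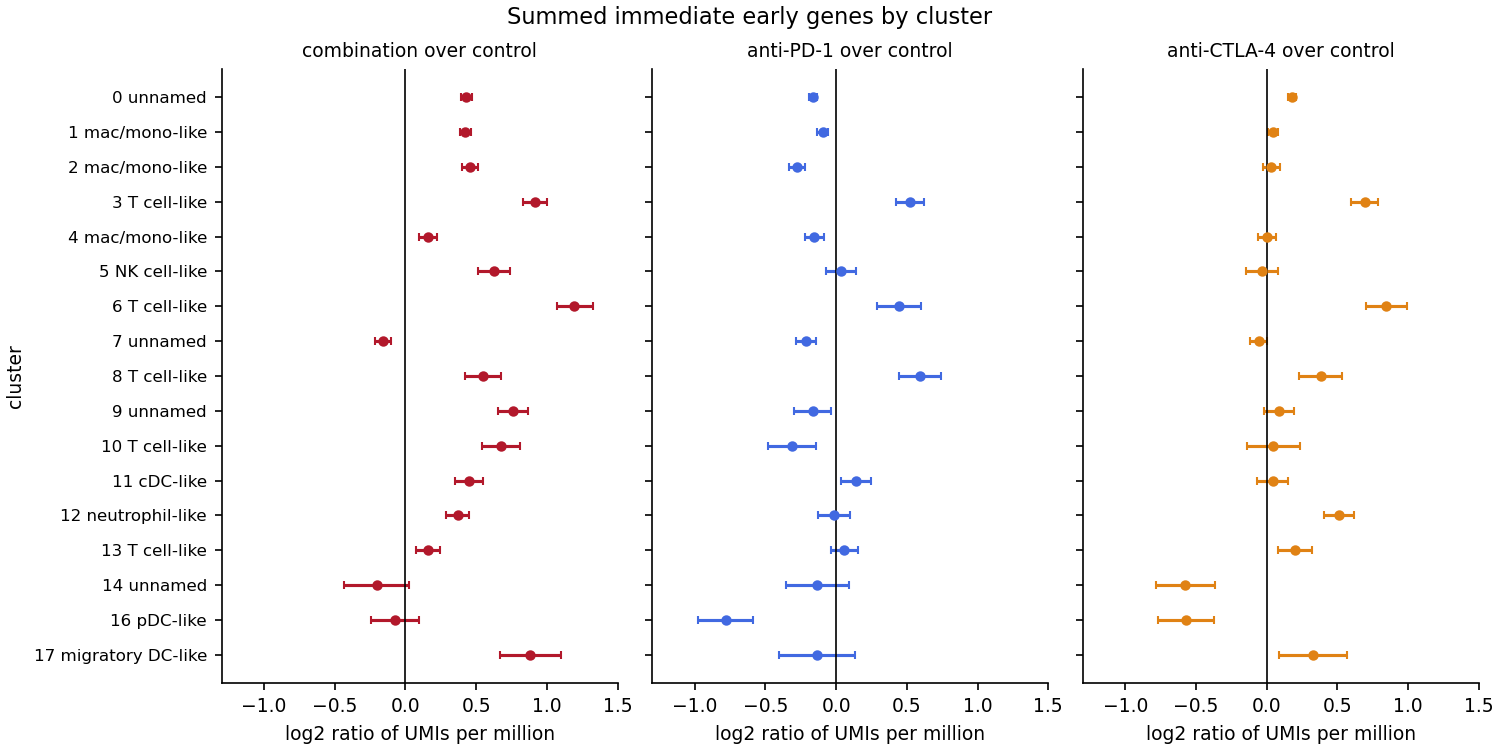
Log2 ratio to control IgG2a of the summed level of the 10 genes in each of 17 clusters for each treated library. Points are ratios of 1 library to 1 library and bars 95% intervals of counting error; the combination points lie right of 0 in 14 clusters and left of it in clusters 7, 14 and 16.

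The single antibodies gave other counts. With anti-PD-1 the ratio lay above 0 in 6 of 17 clusters, and with anti-CTLA-4 in 13 of 17, close to the 14 of the combination. Counting intervals, with anti-PD-1 the summed level was above control in 4 clusters (T cell-like clusters 3, 6 and 8 and the conventional dendritic cell-like cluster) and below it in 8, among them all 3 macrophage/monocyte-like clusters. With anti-CTLA-4 it was above control in 8 clusters and below it in 2, cluster 14 and the plasmacytoid dendritic cell-like cluster. Only in T cell-like clusters 3, 6 and 8 did the intervals of all 3 treated libraries lie above 0; in cluster 3 the levels were 4197 CPM in the combination library, 3195 with anti-PD-1 and 3595 with anti-CTLA-4, against 2224 in control. Neither the difference between clusters nor that between treatments was tested.

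Jund was the member that differed most evenly. It was above control in 16 of 17 clusters of the combination library, 15 of them with an interval above 0, and the median log2 ratio over clusters was 0.71. The exception was the neutrophil-like cluster, with 653 CPM in the combination library against 742 in control (-0.18, -0.55 to 0.19). In cluster 1 Jund measured 737 CPM in the combination library, 448 with anti-PD-1 and 553 with anti-CTLA-4, against 317 in control, and in cluster 6 it measured 974 CPM in the combination library, 532 with anti-PD-1 and 621 with anti-CTLA-4, against 405 in control. It was also higher in the combination library than with anti-PD-1 and than with anti-CTLA-4 in 17 of 17 clusters, in 13 and 11 of them with an interval above 0. Dusp1 likewise was above control in 16 of 17 clusters (13 with an interval above 0) and below it in cluster 14, with 63.4 CPM in the combination library against 222 in control from 15 UMIs in the combination library and 34 in control. Of the 1061 genes, 1.89% were above control in at least 16 clusters and 0.66% in every cluster, namely Arg1, Hilpda, Klf2, Plin2, Gm10116, Ctsd and Lgals3; no member was among these.

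**Figure D4:**
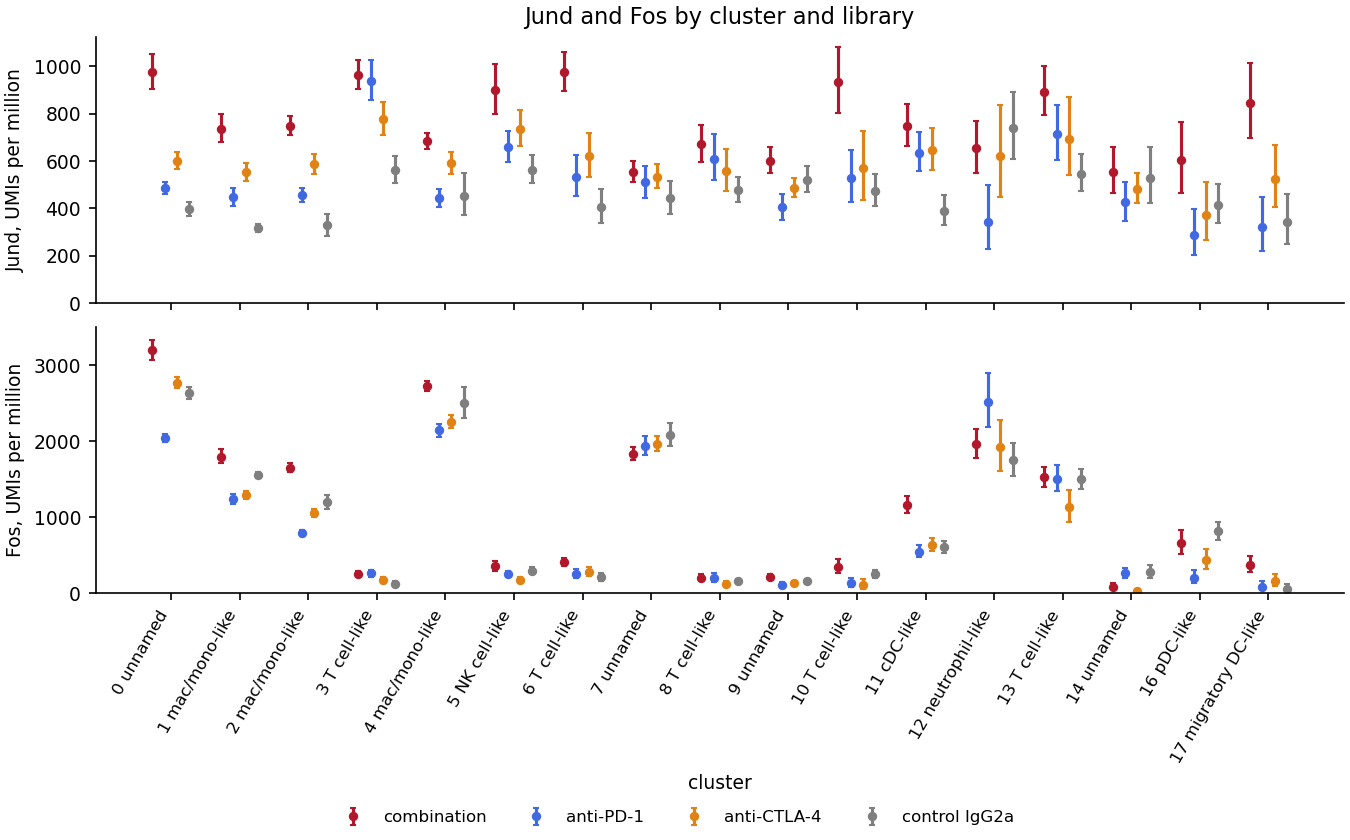
CPM of Jund (top) and Fos (bottom) in each cluster of the combination, anti-PD-1, anti-CTLA-4 and control IgG2a libraries, with exact Poisson 95% intervals; each point is 1 library. Jund is highest in the combination library in 16 of 17 clusters at similar levels throughout, whereas Fos runs from a mean of 2659 CPM in cluster 0 to 158 in cluster 9.

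The remaining members were above control in 10 to 15 clusters. For scale, 4.52% of the 1061 genes were above control in at least 15 clusters, 6.97% in at least 14 and 10.6% in at least 13. The share was 24.1% for at least 11 clusters and 33.4% for at least 10. Fosb, Egr1 and Atf3 did not themselves reach 20 UMIs in every cluster. Junb was above control in 15 of 17 clusters, 13 with an interval above 0, and below it in clusters 7 and 16, and its largest ratio was in cluster 6, with 1525 CPM in the combination library against 484 in control (1.66). Fos was above control in 14, 10 with an interval above 0, and below it in clusters 7 and 14. Ier2 and Zfp36 were above control in 13 clusters each, with intervals above 0 in 11 for Ier2 and 7 for Zfp36 and below 0 in cluster 7 for both. Egr1 had an interval above 0 in 5 clusters and below 0 in the Foxp3-led cluster 10, where 5 UMIs in the combination library stood against 43 in control. Over T cell-like clusters 3, 6, 8 and 10 together, the 75 Egr1 UMIs of control lay in 36 cells, and the 93 of the combination library in 70. The interval does not cover UMIs gathered in few cells. Fosb was above control in 11 clusters, 7 with an interval above 0, and had intervals below 0 in clusters 4 (115 CPM in the combination library against 170 in control) and 16. Jun was above control in 11 clusters, 5 with an interval above 0, and had intervals below 0 in clusters 7 and 13. Atf3 was above control in 10 clusters, 7 with an interval above 0, and had an interval below 0 in the NK cell-like cluster, from 3 UMIs in the combination library and 20 in control. Low counts set wide limits here: in the migratory dendritic cell-like cluster Atf3 had 10 UMIs in the combination library and 1 in control.

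**Figure D5:**
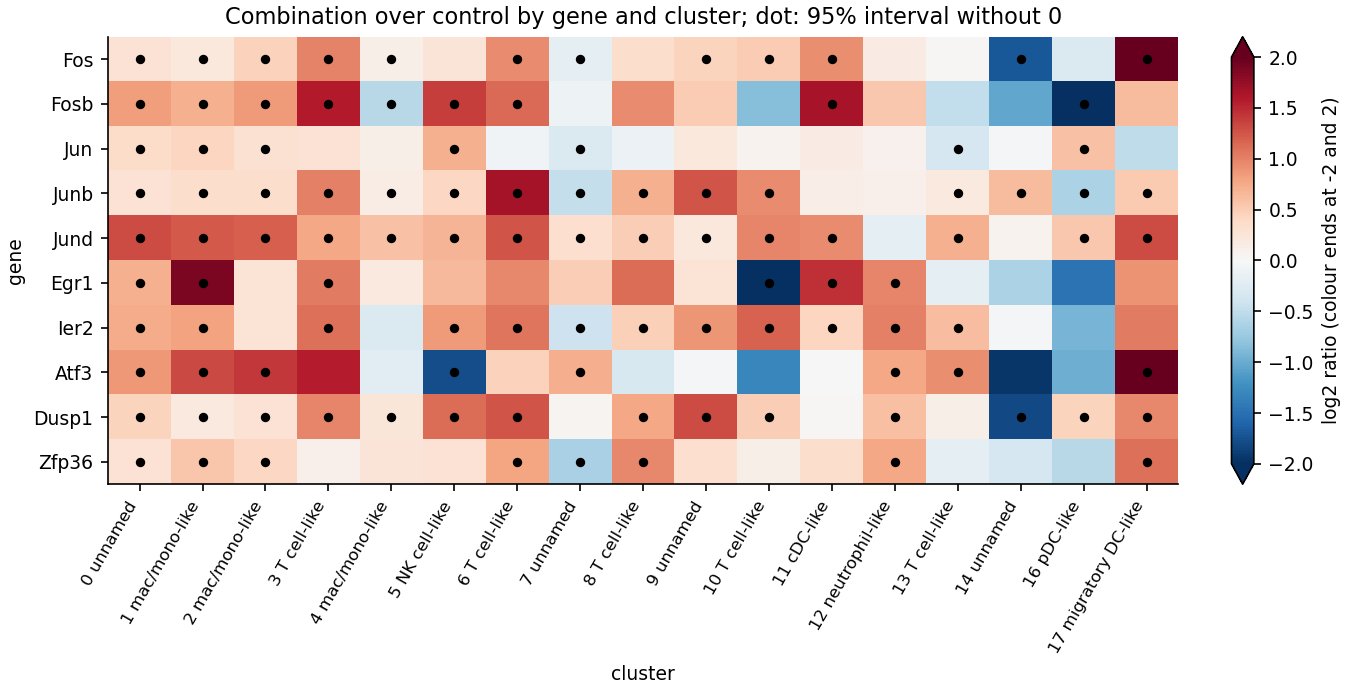
Log2 ratio of the combination library to the control IgG2a library for each gene in 17 clusters (red higher in the combination, blue lower), with a dot where the 95% counting interval leaves out 0. All 10 genes are red with a dot in clusters 0 and 1, whereas cluster 7 is mixed. The share of all genes with a dot was not counted within single clusters.

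Cluster 7 held both directions at once. Junb measured 1555 CPM in its 323 combination cells against 2166 in its 106 control cells (-0.48, -0.60 to -0.36), and Zfp36 341 against 533.5 CPM (-0.64). Fos, Jun and Ier2 were also below control there, with ratios of -0.18, -0.29 and -0.42. Atf3 was above control in the same cells, at 344 CPM against 207 (0.73, 0.37 to 1.10), as was Jund, at 555 against 442 CPM (0.33, 0.08 to 0.59). In clusters 0 and 1, in contrast, all 10 members were above control with an interval above 0. The share of all genes with such an interval was not counted within single clusters, and the members had more UMIs than the median gene.

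Joined into classes, macrophage/monocyte-like cells had a summed level of 9129 CPM in the combination library, 5871 with anti-PD-1 and 6852 with anti-CTLA-4, against 5978 in control. The log2 ratio was 0.61 for the combination (0.59 to 0.63), -0.03 for anti-PD-1 (-0.05 to -0.0027) and 0.20 for anti-CTLA-4 (0.17 to 0.22). All 10 members had an interval above 0 in the combination (13.5% of genes), and Jund (1.15), Egr1 (1.38) and Atf3 (1.30) were past 2-fold (3.68%). Different clusters made up the class: clusters 2 and 4 held 688 and 589 of its 1531 cells in the combination library, and cluster 1 held 1075 of 1289 in control. Cluster 4 had a higher level than cluster 1 in each library, and the class ratio lay above all 3 ratios within its clusters.

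T cell-like cells had a summed level of 4310 CPM in the combination library, 3327 with anti-PD-1 and 3477 with anti-CTLA-4, against 2713 in control, with log2 ratios of 0.67 for the combination (0.62 to 0.71), 0.29 for anti-PD-1 and 0.36 for anti-CTLA-4. In the combination 7 members had an interval above 0 (10.6% of genes) and none was past 2-fold (3.14%). Ier2 (0.96), Junb (0.93) and Jund (0.85) had the largest ratios, and the intervals of Jun, Egr1 and Zfp36 included 0. Clusters 3 and 6 held 420 and 409 of the 1173 cells in the combination library, and clusters 3 and 8 held 331 and 253 of the 1035 in control. Without cluster 13, which carries macrophage markers, the ratio of the sum was 0.91, again with 7 members above 0 (10.4% of genes). Junb and Ier2 were then past 2-fold (3.37% of genes). Junb measured 1472 CPM in the combination library against 658 in control (1.16), and Ier2 350.2 against 173 CPM (1.02). Fos measured 292 CPM in the combination library against 176 in control (0.74), and the intervals of Jun, Egr1 and Atf3 included 0.

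The authors' second table gives 4987 lymphoid cells in 12 clusters of their own. There the summed level was above control in the combination library in 11 of 12, each with an interval above 0, and the median log2 ratio was 0.68. The exception was lymphoid cluster 10, led by Gzmg, with 1468 CPM in the combination library against 1769 in control (-0.27, -0.51 to -0.02). The largest ratios of the sum were in lymphoid cluster 11, led by Ifng (1.35, from 27 cells in the combination library and 21 in control), and lymphoid cluster 6, led by Klra5 (1.22). Junb was above control in 12 of 12 and Jund in 11, with intervals above 0 in 10 each. Other members followed less often: Dusp1 and Ier2 in 10 each, Jun in 9, Fosb in 8 and Fos in 7. Egr1 and Zfp36 were above control in 6 each and Atf3 in 3. A cluster without a UMI of the gene in 1 library was not counted as above. Left out in this way were lymphoid cluster 11 for Jun, Fosb, Egr1 and Zfp36 and lymphoid cluster 1 for Atf3. In each of these the UMIs lay in the combination library only. The share of all genes was not counted for these clusters. These cells largely repeat those of the first table.

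Among 29 other immediate early genes with at least 20 UMIs, 20 were above control in the combination library and 9 below, with a median log2 ratio of 0.63 against -0.12 over all genes. Of these 29, 20 had an interval above 0 (69.0%, against 13.8% of all genes) and 5 below it (17.2%, against 31.1%). By direction alone the counts were 17 above and 12 below with anti-PD-1, and 23 and 6 with anti-CTLA-4. The share of all genes was not counted by direction alone. This list too was chosen with earlier results of these data known. Egr2, a relative of Egr1, measured 28.9 CPM in the combination library, 21.3 with anti-PD-1 and 15.97 with anti-CTLA-4, against 5.98 in control (2.27 for the combination, 1.92 to 2.64). Klf2, a transcription factor of quiescent T cells and endothelium, measured 716 CPM in the combination library, 368 with anti-PD-1 and 465 with anti-CTLA-4, against 246 in control (1.54), and Tnfaip3, an inhibitor of NF-kB signalling, had a ratio of 1.42. Cyr61, which encodes a secreted matrix protein, was lower, with 2 UMIs in the combination library, 4 with anti-PD-1 and 15 with anti-CTLA-4, against 65 in control; 51 of the 65 lay in the 30 cells of tumour or fibroblast-like cluster 18, which had 3 cells in the combination library.

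The medians of the partners and upstream kinases were lower than those of the immediate early genes. Of 14 other AP-1 and cyclic AMP element genes, 6 were above control in the combination library and 8 below (median -0.15). Crem, a repressor at cyclic AMP elements, stood at 56.8 CPM in the combination library against 121 in control (-1.09). Atf4 stood at 93.0 CPM in the combination library against 60.6 in control (0.62). Batf3, a dendritic cell factor, stood at 42.2 against 27.5 (0.62), and at 55.5 CPM with anti-PD-1 and 54.5 with anti-CTLA-4. The 14 partners had 4 intervals above 0 (28.6%, against 13.8% of all genes) and 5 below it (35.7%, against 31.1%). Of 19 genes of the MAP kinase and serum response pathway, 10 were above and 9 below (median 0.05). Of these 19, 5 had an interval above 0 (26.3%, against 13.8% of all genes) and 2 below it (10.5%, against 31.1%), and their median stood above the -0.12 of all genes. Zc3h12a, an RNase that degrades inflammatory mRNAs, led the 5 mRNA decay factors (0.59), of which 4 were above and 1 below.

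Other measures also differed between the libraries. Of 12 heat shock genes, 8 were above control in the combination library (median 0.18), led by Hsph1 (0.95) and Dnajb1 (0.70). Of the 12, 6 had an interval above 0 (50%, against 13.8% of all genes) and 2 below it (16.7%, against 31.1%). The summed level of the heat shock genes was above control in 15 of 17 clusters of the combination library, 16 with anti-PD-1 and 6 with anti-CTLA-4. All 13 mitochondrially encoded genes were below control in the combination library (median -0.45), 11 of them with an interval below 0 (84.6%, against 31.1% of all genes). The summed level of the mitochondrial genes was below control in 16 of 17 clusters, against 14 with anti-PD-1 and 12 with anti-CTLA-4. No background over all genes was counted for these sums. The median UMIs per cell were below control in 13 of 17 clusters of the combination library, 10 with anti-PD-1 and 12 with anti-CTLA-4. The part of these measures in the differences, and that of the digestion, was not tested.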

How the data were processed

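For each of 4 libraries the authors deposited a matrix of raw UMI counts by gene and barcode, with 1 library per group, and tables that assign barcodes to 19 clusters of CD45+ cells and 12 clusters of lymphoid cells. Per the submitters' processing notes, Cell Ranger, Seurat and the mouse build mm10 were used (no version is in the sources used here). The clusters are the authors' own and were not remade. Of 14618 barcodes, 14491 were listed by the authors and used; 127 were not listed, and 2 listed cells had no matrix column. No filter on cells was added and no doublet caller was run; an alternative left out the 3% of cells with the most UMIs (435 cells).

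Counts were summed per library, cluster or class and divided by the UMIs of the same cells, as CPM. Levels carry exact Poisson intervals, shares of cells exact Clopper-Pearson intervals, and log2 ratios the exact conditional binomial interval of 2 Poisson counts, all at 95%. These cover counting error only, and no test was made, since each group had 1 library. The interval method was checked on simulated Poisson counts only. That check does not cover UMIs gathered in few cells, as seen in the real counts. Clusters entered a comparison with at least 20 cells in both libraries. Shares over all genes used genes with at least 20 UMIs in the 2 libraries together, by the same interval or by a 2-fold ratio with 0.5 added to each count. For shares of cells with a UMI, cells were thinned to 1000 UMIs and shallower cells left out.

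A cluster was called X-like where at least 3 markers of a type were seen in at least 25% of its cells and its 10 leading genes held a marker of that type and no more of another; these names may differ from the authors'. All 10 members are named. Of each other gene list up to 4 genes with the largest absolute log2 ratio in the combination are named, and the 10 genes most like the summed members by correlation of log2(CPM + 10) over clusters and libraries. The members and lists were chosen with earlier results of these data known. Promoters came from RefSeq (GRCm38.p6). Alternatives changed the scaling, depth, cells, clusters and members used. Python 3.11.15, numpy 2.4.6, scipy 1.17.1, pandas 2.3.3 and matplotlib 3.10.9 were used.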

Additional observations from a re-analysis of the deposited data

Results flagged for a closer look

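The summed level of the 10 genes differed from control in opposite directions in different clusters of the same treated library; whether clusters differed was not tested. In the combination library it was above control in 14 clusters and below it in cluster 7 (log2 ratio -0.16). In the anti-PD-1 library it was above control in 4 clusters and below it in 8. The log2 ratios below control were -0.16 in cluster 0, -0.095 in cluster 1, -0.28 in cluster 2, -0.15 in cluster 4, -0.22 in cluster 7, -0.17 in cluster 9, -0.31 in cluster 10 and -0.78 in cluster 16. In the anti-CTLA-4 library it was above control in 8 clusters and below it in cluster 14 (-0.58) and cluster 16 (-0.57).

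The 127 barcodes that the authors' table of cells did not list, and which entered no comparison, also held these transcripts. Their summed level was 2215 CPM over all 127. By library it was 1989 CPM over 21 barcodes of the combination, 1798 over 23 of anti-PD-1 and 2367 over 36 of anti-CTLA-4, against 2381 over 47 of control.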

How the results depend on the processing

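With 1 library per group no setting measures the spread between animals, and no replicate could be left out. No paired analysis was possible because each group had 1 library. Where a value moved, the cause was not tested. Over all listed cells the combination's log2 ratio of the summed members, 0.48, was 0.58 with median-of-ratios scaling, 0.55 thinned to 1000 UMIs, 0.55 as a mean of per-cell CPM, 0.52 without the 3% of cells with the most UMIs, 0.51 with all barcodes and 0.45 with clusters weighted equally. In macrophage/monocyte-like cells, 0.61 became 0.74 with median-of-ratios scaling, 0.58 thinned, 0.59 as a mean of per-cell CPM and 0.50 with cluster 0 joined. With clusters 7 and 15 joined, a setting chosen after seeing the data, it was 0.58. In T cell-like cells, 0.67 became 0.94 thinned, 0.92 as a mean of per-cell CPM and 0.54 without Junb, the member with the most UMIs. Without cluster 13, also chosen after seeing the data, it was 0.91. The clusters above control numbered 12 to 15 over the settings, and those below it 1, or 2 without Junb. Of 80 values of single members per treated library, 38 moved beyond their interval and 0 reversed for the combination, 21 moved and 6 reversed for anti-PD-1, and 35 moved and 1 reversed for anti-CTLA-4. With anti-PD-1, Fos (-0.08) was 0.068 thinned and 0.069 as a mean of per-cell CPM, and Egr1 (0.38) was -0.028 thinned. With clusters weighted equally, anti-PD-1 gave -0.33 for Egr1, -0.036 for Ier2 and -0.10 for Zfp36, and anti-CTLA-4 -0.026 for Egr1. The settings without cluster 15 (macrophage/monocyte-like) and without cluster 9 (T cell-like) were not run, as those classes did not hold these clusters.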
